A study of Homo sapiens with 6 samples.

Results

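Spheres grown from cells exposed beforehand to a DNA demethylating drug were compared with spheres grown without it, over all genes measured in the neuroblastoma line SK-N-AS. The comparison rested on 4 of the 6 arrays of the series, 2 of pretreated spheres (iCSC) and 2 of untreated spheres (Sphere), and 2 further arrays of the same line grown as an attached layer (Monolayer) entered the model for its estimate of spread. iCSC cells were held as a monolayer in 2.5 uM 5AdC (5-aza-2'-deoxycytidine) for 5 days before they formed spheroids in medium free of serum. Sphere cells formed spheroids in the same kind of medium, and the labels name neither a vehicle nor any other pretreatment for them. All 3 cultures came from 1 established tumour line, the labels do not give the length of spheroid culture, and they do not state whether the paired arrays were made from independently grown cells. The p-values therefore measure only how these arrays vary, and that variation may be technical.

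5AdC is a cytidine analogue that dividing cells build into their DNA, where it traps DNA methyltransferases. Methylation is then lost as the cells divide, and genes whose promoters were silenced by it can be transcribed again. Cancer-testis genes and imprinted genes are well-known examples of genes under such control. Neuroblastoma arises from the sympathetic lineage of the neural crest, and its cells can occupy a neuron-like adrenergic state or a mesenchymal state.

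Levels are log2 GCRMA signals. A gene counted as measured in a culture where both arrays read at least log2 5, taken here as the limit of background, and a gene was tested where 2 or more of the 6 arrays reached it. That left 10459 genes. A gene was called where limma gave a Benjamini-Hochberg adjusted p under 0.05 over all of them, and fold changes from under the limit are lower bounds, written "at least", with each value under log2 5 set to 5. Log2 differences come from the fit to unaltered values, also where 1 array lay under the limit, unless said otherwise. Array medians lay between 2.78 and 2.83. The 3' minus 5' difference of the ACTB control probe sets, which grows as RNA degrades, came to 1.47 and 1.40 for iCSC against 1.22 and 1.21 for Sphere, and its part in the results was not tested.

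Most of the transcripts that differed were measured in both cultures, and a smaller group was measured in only 1 of these 2. Of 10459 genes, 2014 (19.3%) were called higher in iCSC and 2008 (19.2%) lower, 38.5% in all. Called changes of at least 2-fold numbered 672 higher (6.43% of genes tested) and 871 lower (8.33%), and 23 higher and 36 lower genes passed 32-fold. The median difference over all genes was 0.01 on the log2 scale. Among the 9317 genes measured in both cultures, 1640 were called higher and 1605 lower, with a median size of 0.74 among the called. Another 302 genes were under the limit in Sphere and measured in iCSC, each on both arrays, and 317 showed the reverse. Grouping genes by these readings fixed their direction, so their 288 and 307 calls describe them and support nothing. Of the 302, 127 were measured on both Monolayer arrays too and 170 were under the limit there. Of the 317, 65 were measured in Monolayer and 248 were not. The arrays of the 2 cultures did not overlap for 69.4% of the genes tested, with iCSC higher for 35.6% and lower for 33.8%. Correlations over genes, given as a description only, came to 0.992 within Sphere, 0.984 within iCSC and 0.838 to 0.859 from one to the other (Pearson's r). The plot of mean levels shows both arms, the band along the diagonal and the genes near 1 of the axes.

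**Figure D1:**
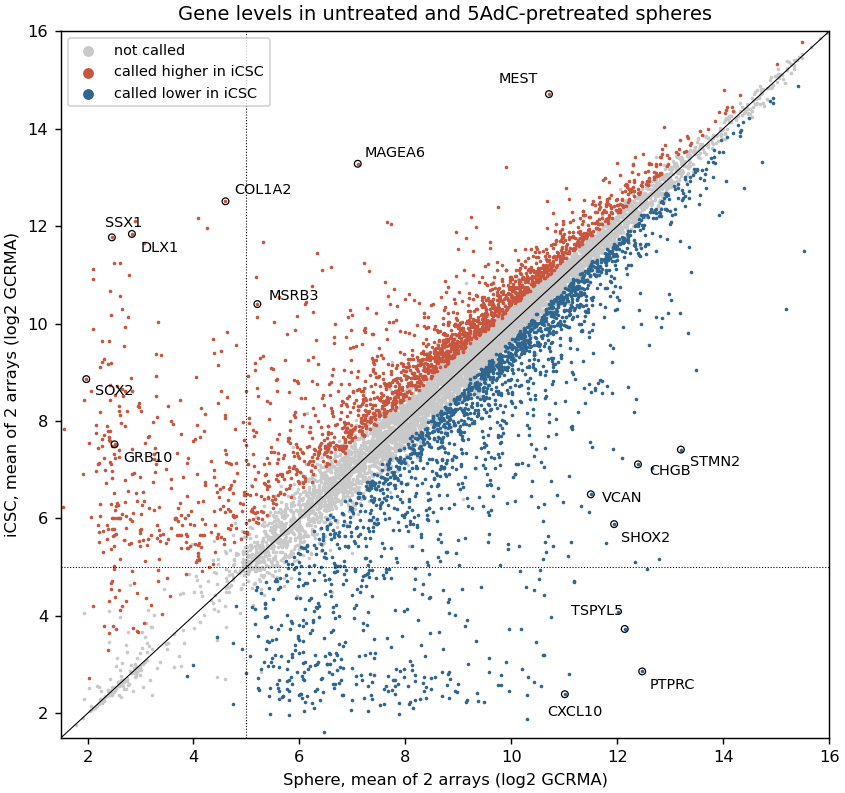
Mean level of each tested gene over 2 Sphere arrays (horizontal) and 2 iCSC arrays (vertical), in log2 GCRMA units, with genes called higher in red and lower in blue. Dotted lines mark the limit of log2 5 and the diagonal marks equal levels. SSX1, DLX1, SOX2 and GRB10 lie left of the vertical limit and TSPYL5, PTPRC and CXCL10 lie below the horizontal limit.

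Promoters of 7 genes are shown to describe their sequence, and no call rests on them. In the first 5, every CG pair, the site of DNA methylation in human cells, is in capitals. MAGEA12, SSX1, DLX1 and PITX1 were measured in iCSC and not in Sphere, and PTPRC showed the reverse. The sequences are the 250 bases before the transcription start in RefSeq's annotation of GRCh38.p14, written 5' to 3' on the gene's strand, and the genes were chosen after their values were seen.
MAGEA12 (chrX:152733507-152733756, plus strand): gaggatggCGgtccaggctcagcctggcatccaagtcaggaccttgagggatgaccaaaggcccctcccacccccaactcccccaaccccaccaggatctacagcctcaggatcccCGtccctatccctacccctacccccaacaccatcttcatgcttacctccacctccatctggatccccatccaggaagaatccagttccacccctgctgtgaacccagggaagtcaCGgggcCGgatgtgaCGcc
SSX1 (chrX:48255142-48255391, plus strand): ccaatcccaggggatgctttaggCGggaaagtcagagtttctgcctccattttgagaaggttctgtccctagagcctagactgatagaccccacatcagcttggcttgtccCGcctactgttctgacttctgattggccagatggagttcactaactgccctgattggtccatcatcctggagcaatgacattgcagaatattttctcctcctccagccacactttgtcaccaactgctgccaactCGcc
DLX1 (chr2:172085257-172085506, plus strand): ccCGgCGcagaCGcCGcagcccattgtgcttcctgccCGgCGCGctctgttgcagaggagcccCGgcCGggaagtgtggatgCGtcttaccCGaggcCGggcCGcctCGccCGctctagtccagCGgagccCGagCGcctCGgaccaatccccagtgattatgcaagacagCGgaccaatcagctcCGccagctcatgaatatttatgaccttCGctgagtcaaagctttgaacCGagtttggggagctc
PITX1 (chr5:135034229-135034478, minus strand): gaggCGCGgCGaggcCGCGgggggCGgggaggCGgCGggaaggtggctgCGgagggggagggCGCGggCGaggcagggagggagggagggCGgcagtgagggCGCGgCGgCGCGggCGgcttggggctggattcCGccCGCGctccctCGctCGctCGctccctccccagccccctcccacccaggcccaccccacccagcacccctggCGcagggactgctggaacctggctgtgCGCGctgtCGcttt
PTPRC (chr1:198638790-198639039, plus strand): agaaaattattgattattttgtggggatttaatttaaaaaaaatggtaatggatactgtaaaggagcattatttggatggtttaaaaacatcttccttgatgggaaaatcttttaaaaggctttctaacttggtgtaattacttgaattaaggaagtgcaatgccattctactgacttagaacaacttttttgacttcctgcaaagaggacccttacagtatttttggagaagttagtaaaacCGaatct

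The windows held very different numbers of CG pairs, 5 for MAGEA12 and 3 for SSX1 against 23 for DLX1 and 29 for PITX1, with 1 for PTPRC. The median was 11 over 27305 RefSeq promoters and 21 over the 8664 tested genes that had one. Genes under the limit in Sphere and called higher in iCSC had a median of 19 (216 with a promoter), and genes under the limit in iCSC and called lower had 17 (232). Within the former, the median was 16 for those that were also under the limit in Monolayer (117 promoters) and 22 for those measured there (96). Genes measured in both cultures had medians of 23 when called higher and 21 when called lower. These counts describe sequence and not methylation, which was not measured.

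Cancer-testis genes, a class mostly silent outside the germ line, were higher in iCSC wherever they could be tested. Of 37 on the array, 13 entered the test and all 13 rose, beside 19.3% called higher over all genes. Of these, 9 were under the limit on each Sphere array and entered through iCSC alone, so the filter set their direction, and the other 24 genes of the class did not reach the limit on 2 arrays. MAGEA6, a MAGE family antigen measured in both cultures, read 7.04 and 7.17 in Sphere and 13.39 and 13.17 in iCSC, a difference of 6.18 ± 0.13 (log2, SE, limma, adjusted p = 2.03e-06). Monolayer arrays read 6.22 and 6.23, so the cultures without the drug lay close together. MAGEA12 read 2.99 and 2.80 in Sphere and 12.32 and 11.88 in iCSC, at least 137.3-fold higher. SSX1, whose family takes part in the gene fusions of synovial sarcoma, read 2.45 and 2.47 against 11.89 and 11.64, at least 108.9-fold higher, and its relative SSX3 was at least 76.2-fold higher. Both SSX genes also lay under the limit on both Monolayer arrays. MAGEA and SSX genes have near-identical copies, so signal may be shared between them, and when x_at and s_at probe sets, which can match more than 1 transcript, were left out, 6 members were called.

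Imprinted genes, expressed from 1 parental copy under the control of methylated DNA, changed in every tested case but in both directions. Of 16 tested, 11 rose and 5 fell, beside 19.3% and 19.2% over all genes. MEST, a paternally expressed gene for a hydrolase-like protein, read 11.08 and 10.35 in Sphere and 14.75 and 14.67 in iCSC, 15.96-fold higher (limma, adjusted p = 3.24e-05). Monolayer stood at 14.56 and 14.48, next to iCSC. CDKN1C, a cyclin-dependent kinase inhibitor, read 6.99 and 5.51 in Sphere and 9.67 and 8.98 in iCSC (difference 3.07 ± 0.56, adjusted p = 0.00649), a call lost without variance moderation (0.0908). GRB10, an adaptor that restrains insulin receptor signalling, was under the limit in Monolayer and Sphere and read 7.48 and 7.57 in iCSC, at least 5.74-fold higher. NAP1L5, a nucleosome assembly relative, fell from 10.40 and 10.21 to 8.37 and 7.95. Of the 11 that rose, 8 did so at least 2-fold, and of the 5 that fell, 3 did. The chromosome of several members shifted as a whole, as given further on, and with chromosome medians removed 9 were called higher and 5 lower.

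Within the methylation machinery the largest rises were those of the de novo methyltransferases, and most other members did not pass the test. DNMT3B read 7.15 and 7.61 in Sphere and 9.77 and 9.79 in iCSC, 5.26-fold higher (difference 2.40 ± 0.18, limma, adjusted p = 0.000137). DNMT3A rose from 8.82 and 8.81 to 10.10 and 9.99 (1.23 ± 0.11, adjusted p = 0.000346). DNMT1, the maintenance enzyme and a main target of 5AdC, read 12.25 and 12.43 against 12.21 and 12.38, a difference of -0.04 ± 0.09 (adjusted p = 0.772). The arrays of the cultures interleaved for DNMT1 and stood well apart for both de novo enzymes. UHRF1, which guides DNMT1 to newly copied DNA, and the TET1, TET2 and TET3 dioxygenases, which oxidise methylcytosine, did not pass the test (adjusted p = 0.0723, 0.996, 0.0710 and 0.0689). In all 3 of 21 members rose and 4 fell. ZBTB4, a reader of methylated DNA, differed by 1.06 ± 0.17 (adjusted p = 0.0036), and since it lies in the shifted stretch at the start of chromosome 17, the call was lost with neighbourhood medians removed (0.0910). Of 14 genes that take up or process deoxycytidine analogues, none fell and 4 rose (28.6%, beside 19.3% over all genes). They were the nucleoside transporter SLC29A2, the nucleotide hydrolase SAMHD1 (0.95 ± 0.13, adjusted p = 0.00215), the nucleotidase NT5C and the reductase subunit RRM2. DCK, the kinase that activates the drug, read 9.92 and 10.08 in Sphere and 9.91 and 9.81 in iCSC (adjusted p = 0.385). The NT5C call was lost without either Sphere replicate or either iCSC replicate (adjusted p from 0.067 to 0.147), and the RRM2 call without Sphere replicate 1 (0.0801) and without iCSC replicate 1 (0.073). Without variance moderation the calls of SLC29A2, NT5C and RRM2 were lost (0.066, 0.138 and 0.120).

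Most polycomb and histone modifier genes did not pass the test. Of 40 tested, 11 rose (27.5%) and 2 fell (5.0%), beside 19.3% and 19.2% over all genes, with 1 member past 2-fold and a list median of 0.13. JARID2, a subunit that helps bring polycomb complex PRC2 to DNA, rose from 9.91 and 9.73 to 11.04 and 11.38 (1.39 ± 0.14, limma, adjusted p = 0.000583). SUZ12, a core PRC2 subunit encoded on chromosome 17, rose by 0.76 ± 0.09, a call lost with neighbourhood medians removed (adjusted p = 0.0732). CHD7, a chromatin remodeller of neural crest development, rose by 0.88 ± 0.11. The number of members called higher was 8 with neighbourhood medians removed and 7 without Sphere replicate 1.

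Adrenergic and neuronal genes were the lists with the highest shares of lower calls. Of 25 adrenergic neuroblast genes, 20 (80.0%) fell and none rose, and of 33 neuronal differentiation genes, 26 (78.8%) fell and 3 rose, beside 19.2% and 19.3% over all genes. STMN2, GAP43 and ELAVL4 stand in both lists. The medians were -1.79 and -2.37, or -1.67 and -2.15 with values under the limit set to it. In RNA from whole cultures, fewer cells of a type and less RNA per cell cannot be told apart. STMN2, a microtubule regulator of growing axons, read 13.36 and 13.04 in Sphere and 7.11 and 7.72 in iCSC, 55.1-fold lower (difference -5.78 ± 0.23, limma, adjusted p = 9.97e-06). CHGB, a granin of dense-core vesicles, read 12.74 and 12.03 against 6.13 and 8.10 (-5.27 ± 0.64, adjusted p = 0.00117). Neither gene reached the limit in Monolayer, and both stayed measurable in iCSC. HAND1, a transcription factor of the sympathoadrenal lineage, read 9.63 and 9.34 in Sphere and 2.25 and 2.22 in iCSC, at least 22.4-fold lower. TFAP2B, a factor of noradrenergic differentiation, read 11.33 and 10.91 against 4.98 and 6.06, with 1 iCSC array under the limit (-5.60 ± 0.36, adjusted p = 6.68e-05).

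The neuronal members covered the cytoskeleton, the membrane and the synapse. SCN3A, a sodium channel subunit, was at least 36.7-fold lower. The neurofilament and related proteins NEFL, NEFM and INA fell, with differences of -2.90, -2.15 and -5.36. INA had 1 iCSC array under the limit (-4.98 with that array set to it). MAPT, the microtubule protein tau, read 9.92 and 9.90 in Sphere and 5.68 and 6.95 in iCSC (-3.59 ± 0.38, adjusted p = 0.000668). L1CAM, an adhesion molecule of axons, fell by 2.70 (± 0.33). INSM1, TBX2, TH, RET and ELAVL4 of the adrenergic list did not pass the test, and NCAM1, SYT1 and RBFOX2 of the neuronal list rose. Of 11 sympathetic neuroblast markers on the array, 10 were measured on both Sphere arrays, 9 on both iCSC arrays and 4 on both Monolayer arrays. Their mean level was 9.50 to 9.94 in Sphere, 6.89 to 7.30 in iCSC and 4.87 to 5.09 in Monolayer.

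The iCSC arrays differed from each other on these genes. Replicate 2 lay above replicate 1, and so nearer to Sphere, for 14 of the 20 adrenergic genes that fell and for 21 of the 26 neuronal genes, in 12 of the latter by over 1 on the log2 scale. Over all genes measured in both cultures and called lower at least 2-fold, this was so for 336 of 564. The number of neuronal genes called lower was 15 without Sphere replicate 1 and 14 without variance moderation, and that of adrenergic genes was 15 and 13. The median absolute difference between arrays was 0.19 in iCSC, 0.14 in Sphere and 0.11 in Monolayer.

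**Figure D2:**
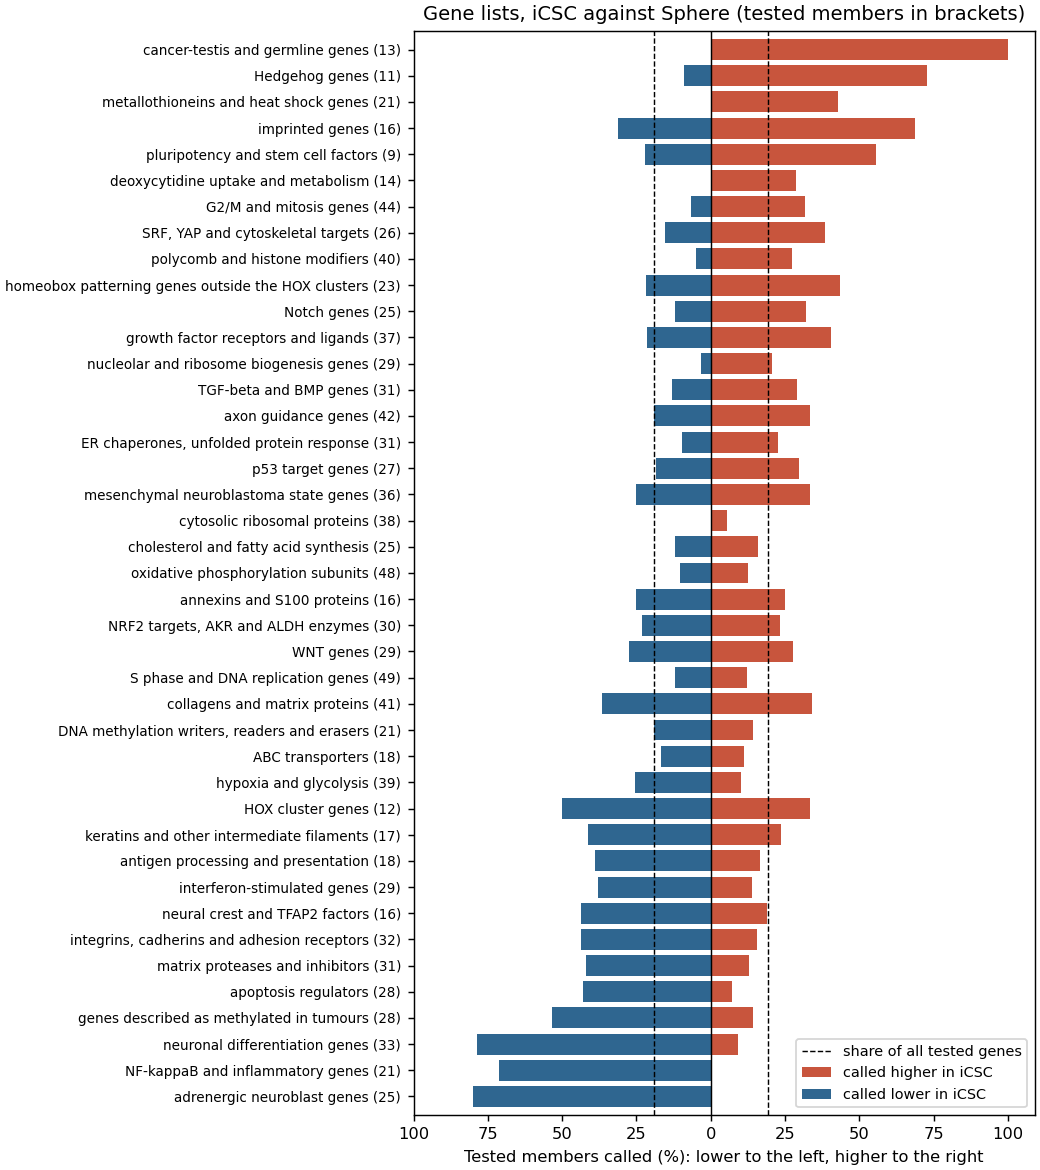
Share of tested members called higher (red, to the right) or lower (blue, to the left) in iCSC for 41 gene lists with at least 9 tested members, ordered by the difference of the shares. Dashed lines mark the shares over all tested genes, 19.3% higher and 19.2% lower. Cancer-testis, Hedgehog, metallothionein and heat shock, and imprinted genes lie at the top, and adrenergic, NF-kappaB and neuronal genes at the bottom.

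Beyond these lists, the genes with the largest falls measured in both cultures were a mixed set. SHOX2, a homeobox factor of limb and heart development, read 12.26 and 11.61 in Sphere and 5.46 and 6.31 in iCSC, 66.3-fold lower (-6.05 ± 0.34, limma, adjusted p = 3.82e-05). ARHGAP36, a protein kinase A antagonist, read 12.95 and 12.35 against 5.83 and 8.25 (-5.61 ± 0.71, adjusted p = 0.00141), a call lost without variance moderation (0.0523). ICA1, a protein of secretory vesicles, read 11.91 and 11.03 against 6.08 and 6.17. The rule that named these genes required arrays without overlap between the cultures, which held for 69.4% of all genes tested. VCAN, a large proteoglycan of loose matrix, fell by 5.01 (± 0.21), and all 5 of its probe sets were called lower. NHSL2, an X-linked gene, read 10.71 and 10.68 in Sphere and 5.26 and 6.002 in iCSC, 33.4-fold lower. NMNAT2, an enzyme that maintains axons, LGR5, an R-spondin receptor of stem cells, and the signalling regulators RGS5 and STAC fell, with differences of -5.07, -4.65, -4.89 and -4.67. RGS5 read 8.81 and 11.78 on the iCSC arrays and TYRP1, a melanosome enzyme, 5.82 and 8.65, so their standard errors were wide (0.85 and 0.87), and both calls were lost without variance moderation (adjusted p = 0.0883 and 0.0923). TYRP1 lost its call also without Sphere replicate 2 (0.0522).

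PTPRC headed the genes measured in Sphere and not in iCSC. This gene for CD45, a phosphatase best known from leukocytes, read 12.42 and 12.52 in Sphere, 11.64 and 11.84 in Monolayer and 2.85 and 2.87 in iCSC, at least 177.5-fold lower, with all 3 of its probe sets called. Of 15 leukocyte markers on the array, the other 14 lay under the limit on both arrays of every culture. TSPYL5, a nucleosome assembly relative, was at least 140.7-fold lower, with 2.91 and 3.07 in Monolayer, 12.15 and 12.13 in Sphere and 3.13 and 4.33 in iCSC. The matrix proteases MMP9 and MMP1 were at least 72.6-fold and 53.8-fold lower, and the secreted protein FIBIN at least 67.6-fold. MARCHF11, a membrane-bound ubiquitin ligase, was at least 49.3-fold lower, with 10.48 and 10.77 in Sphere. RERG, a RAS-like growth inhibitor, and the X-linked genes TCEAL7 and ARMCX1 were at least 48.1-fold, 48.9-fold and 47.2-fold lower. Unlike PTPRC and MMP1, these last 3 were under the limit in Monolayer too.

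Inflammatory genes of the NF-kappaB system were lower in iCSC. Of 21 tested, 15 (71.4%) fell, none rose and 13 fell at least 2-fold, with a list median of -1.85, or -1.63 with values under the limit set to it. Over all genes 19.2% were called lower, 19.3% higher and 8.33% lower by at least 2-fold. TNF, a cytokine that activates NF-kappaB and is also induced by it, read 8.90 and 9.77 in Sphere and 2.99 and 3.98 in iCSC, at least 20.2-fold lower. NFKBIA, the inhibitor that holds NF-kappaB in the cytoplasm and is a direct target of it, read 13.22 and 13.46 against 9.31 and 10.32 (-3.52 ± 0.30, limma, adjusted p = 0.000246). CCL2, a chemokine for monocytes, read 15.33 and 15.70 against 10.98 and 11.98, and ICAM1, an adhesion molecule for leukocytes, 9.82 and 11.25 against 4.34 and 5.17. TNF and ICAM1 were under the limit on both Monolayer arrays, CCL2 read 10.39 and 10.31 there, and NFKBIA 10.70 and 10.60, so Sphere was the highest culture for these 4. Of the 15 falling genes, iCSC replicate 2 lay above replicate 1 in 13.

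Interferon-stimulated genes split. Of 29 tested, 11 fell and 4 rose, beside 19.2% and 19.3% over all genes, with a list median of -0.20. CXCL10, a chemokine for T cells, read 10.66 and 11.36 in Sphere and 2.30 and 2.49 in iCSC, at least 64.6-fold lower, and its neighbour CXCL11 was at least 12.9-fold lower. IRF1, a transcription factor of this response, fell from 8.22 and 8.40 to 5.07 and 5.64 (-2.95 ± 0.26, limma, adjusted p = 0.000293). IFITM1, a membrane protein that blocks virus entry, went the other way, from 5.60 and 4.93 in Sphere to 9.47 and 9.12 in iCSC, with 1 Sphere array under the limit (4.03 ± 0.25, adjusted p = 5.49e-05). IFI44L, IRF7 and ISG15 were the other 3 that rose. Of 18 genes of antigen processing and presentation, 7 fell and 3 rose. HLA-B and HLA-C, class I molecules with near-identical relatives, fell (differences of -1.64 ± 0.23 and -0.91 ± 0.19), the peptide loading protein TAPBP fell by 1.44 (± 0.22), and TAP2, a subunit of the peptide transporter, rose by 0.95 (± 0.17). Without variance moderation HLA-B, HLA-C and TAPBP lost their calls (adjusted p = 0.0551, 0.0961 and 0.0575), and HLA-C did so without Sphere replicate 1 (0.074).

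The promoters of CXCL10 and NFKBIA are printed because they bear the NF-kappaB consensus, in capitals, beside falls of these genes. They too were chosen after values were seen.
CXCL10 (chr4:76023498-76023747, minus strand): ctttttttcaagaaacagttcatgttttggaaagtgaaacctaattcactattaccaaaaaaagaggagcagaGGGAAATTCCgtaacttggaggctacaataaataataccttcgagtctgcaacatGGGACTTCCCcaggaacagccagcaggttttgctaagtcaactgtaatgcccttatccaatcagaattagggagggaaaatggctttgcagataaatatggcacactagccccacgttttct
NFKBIA (chr14:35404750-35404999, minus strand): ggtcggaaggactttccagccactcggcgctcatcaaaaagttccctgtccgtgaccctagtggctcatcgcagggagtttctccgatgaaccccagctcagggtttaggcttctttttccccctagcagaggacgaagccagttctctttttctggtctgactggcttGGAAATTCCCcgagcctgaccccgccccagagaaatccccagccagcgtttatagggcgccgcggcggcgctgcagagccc

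The window of CXCL10 held 2 matches and that of NFKBIA held 1. Both strands were searched over the 250 bases, overlapping matches included. Of the NF-kappaB genes that fell, 12 had a promoter in the table and 5 held a match (41.7%). So did 5 of the 11 interferon-stimulated genes that fell (45.5%) and 0 of the 3 that rose and had a promoter. The share was 6.0% of tested genes and 5.1% of all promoters. The interferon-stimulated response element, searched on both strands as TTTC, any 2 bases and TTTC again, was found in 8 of 11 interferon-stimulated genes that fell and in all 3 that rose and had a promoter, beside 2.3% of tested genes and 3.1% of all promoters. The motif was therefore present on both sides of the split. Both lists were drawn up by pathway, so an excess of their motifs does not bear on the falls or rises. NF-kappaB genes that did not fall were not counted apart. A match is a stretch of letters and says nothing of binding.

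Patterning genes of the homeobox class were among the largest rises. Outside the HOX clusters, 10 of 23 rose and 5 fell, beside 19.3% and 19.2% over all genes, and 6 of the 10 were under the limit in Sphere. DLX1, a factor of forebrain and neural crest patterning, read 2.86 and 2.81 in Sphere and 12.02 and 11.67 in iCSC, at least 114.9-fold higher, and the Monolayer arrays read 8.93 and 8.73. Its partner DLX2 was at least 60.1-fold higher. PITX1, a hindlimb and pituitary factor, read 2.37 and 1.83 in Sphere and 11.23 and 11.02 in iCSC, at least 69.6-fold higher, beside 9.09 and 8.85 in Monolayer. SIX2, a factor of kidney progenitors, was at least 25.6-fold higher. All 4 of these genes were measured in Monolayer and iCSC and not in Sphere. HOX genes went both ways, with 4 of 12 higher and 6 lower. HOXB3 and HOXB2 were at least 15.1-fold and 9.28-fold higher, and HOXD10, which lay at 2.28 on both Monolayer arrays, was at least 17.7-fold lower. Of 16 neural crest and TFAP2 factors 3 rose and 7 fell, with ZIC2 at least 23.3-fold higher and the neurotrophin receptor NGFR lower (-3.38 ± 0.20), with 1 iCSC array under the limit.

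Of 9 tested stem cell factors, 5 rose and 2 fell, beside 19.3% and 19.2% over all genes. Of the rising ones 4 were under the limit in Sphere and measured in iCSC, a grouping that set their direction, so their calls support nothing. SOX2, a factor of neural and embryonic stem cells, read 1.97 and 1.98 in Sphere and 9.25 and 8.47 in iCSC. PROM1, the surface protein CD133, read 2.59 and 2.61 against 10.44 and 10.68. MYCN, the oncogene of high-risk neuroblastoma, read 2.68 and 2.73 against 7.97 and 5.63, so its iCSC arrays lay far apart. TBX3, a T-box repressor, fell from 10.24 and 9.90 to 8.12 and 8.46 (-1.78 ± 0.19, limma, adjusted p = 0.000622). MYC fell by 0.99 (± 0.22, adjusted p = 0.0133), and 3 alternatives ended the call, those with no variance moderation (0.116) and those leaving out Sphere replicate 1 (0.0661) or iCSC replicate 2 (0.0574). The MYCN call was lost with values under 5 set to 5 (0.0877) and without variance moderation (0.0778).

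**Figure D3:**
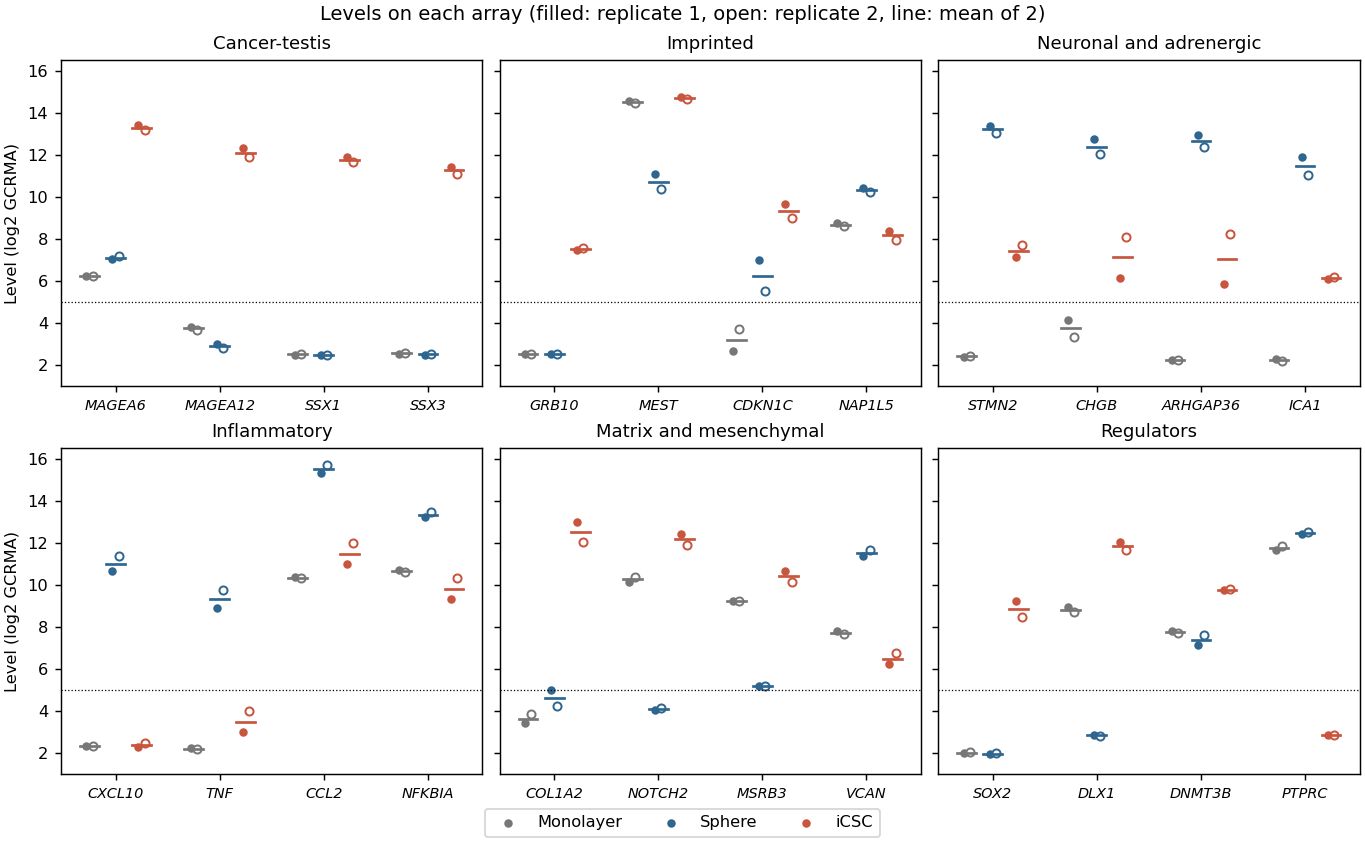
Level of 24 named genes on each array in log2 GCRMA units, grouped by role, for Monolayer (grey), Sphere (blue) and iCSC (red). Filled circles are replicate 1, open circles replicate 2, short lines the mean of 2, and the dotted line the limit of log2 5. NOTCH2, MSRB3, MEST and DLX1 were higher in Monolayer and iCSC than in Sphere, and the cancer-testis genes were high in iCSC.

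Collagens and matrix proteins changed in both directions, while more adhesion receptors and matrix proteases were called lower than higher. Of 41 collagens and matrix proteins, 14 rose and 15 fell, beside 19.3% and 19.2% over all genes. COL1A2, a chain of type I collagen, read 4.99 and 4.22 in Sphere and 13.01 and 12.02 in iCSC, at least 182.7-fold higher, and the Monolayer arrays read 3.44 and 3.84. COL6A3, a chain of type VI collagen, rose from 7.06 and 7.38 to 11.13 and 11.36, while the proteoglycan LUM fell from 13.05 and 13.31 to 10.24 and 10.21. Of 12 fibroblast markers, 9 were measured on both arrays in Sphere and 9 in iCSC, and their mean level was 8.72 to 8.92 and 8.35 to 8.54, with 3 called higher and 5 lower. Of 32 integrins, cadherins and adhesion receptors, 5 rose and 14 fell. The collagen-binding integrin chain ITGA1 fell by 5.36 (± 0.53), with 1 iCSC array under the limit (-5.12 with that array set to it). The protocadherin PCDH9 fell by 3.15 (± 0.37), and CD99 rose by 3.25 (± 0.19). Of 31 matrix proteases and inhibitors, 13 fell and 4 rose. ADAM12, a membrane protease, read 10.22 and 10.37 in Sphere and 2.43 and 2.35 in iCSC, at least 39.2-fold lower, and the cathepsin CTSK fell by 3.22 (± 0.18).

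Mesenchymal state genes rose in 12 of 36 cases and fell in 9. NOTCH2, a receptor of the mesenchymal state, read 4.06 and 4.12 in Sphere and 12.44 and 11.90 in iCSC, at least 143.9-fold higher, with 10.14 and 10.39 in Monolayer. SIX4 was at least 9.67-fold higher, SNAI2, a repressor of epithelial genes, rose by 2.15 (± 0.42), and PDGFRB, a growth factor receptor of mesenchymal cells, was lower with 1 iCSC array under the limit (-2.535 with that array set to it). The SNAI2 call was lost without Sphere replicate 1 (adjusted p = 0.0502), without Sphere replicate 2 (0.0664) and without variance moderation (0.0996). Cytoskeletal genes and other targets of SRF and YAP rose in 10 of 26 cases (38.5%) and fell in 4 (15.4%). Of the 26, 5 were measured in iCSC and under the limit in Sphere, and 0 showed the reverse. Over all 10459 genes tested these numbers were 302 and 317. TPM2, a tropomyosin, read 5.72 and 4.92 in Sphere and 11.57 and 11.76 in iCSC, with 1 Sphere array under the limit (6.35 ± 0.26, adjusted p = 9.97e-06 by limma). LATS2, a Hippo kinase, and FHL2, an actin-linked cofactor, were at least 10.4-fold and 8.38-fold higher. The phosphatase PTPN14, which restrains YAP, rose by 3.52 (± 0.15). These had the largest changes of the list, and its falling members are not named. Of the 26, 9 rose and 3 fell at least 2-fold, beside 6.43% and 8.33% over all genes. ANXA1, an annexin that limits inflammation, read 2.78 and 3.35 against 12.49 and 10.81 and stood at 12.41 and 12.26 in Monolayer.

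The largest rises measured in both cultures differed in where Monolayer stood. MSRB3, a methionine sulfoxide reductase, read 5.20 and 5.21 in Sphere, 10.67 and 10.13 in iCSC and 9.24 and 9.22 in Monolayer (iCSC minus Sphere 5.20 ± 0.19, limma, adjusted p = 7.11e-06). CAP2, an actin regulator, read 5.75 and 5.49, then 10.60 and 10.48, and 10.07 and 10.16 in Monolayer. RAI14, DNM3 and FSTL1, an actin-binding protein, a dynamin and a secreted glycoprotein, rose by 4.67 (± 0.23), 4.50 (± 0.28) and 4.42 (± 0.34). Their Monolayer means were 10.91, 11.53 and 12.9, all above Sphere. CAPN6, a calpain relative without protease activity, SNX10, an endosomal sorting protein, and LINC01694, a long noncoding RNA, were under the limit in Monolayer. CAPN6 read 6.13 and 6.55 in Sphere and 11.39 and 11.48 in iCSC, with both Monolayer arrays under the limit (4.85 and 4.43). SNX10 read 5.70 and 6.78 against 10.36 and 11.18, and 2.05 and 2.14 in Monolayer, and LINC01694 read 7.34 and 5.84 against 11.27 and 11.05. EDN3, a neural crest growth factor, rose by 4.32 (± 0.22), HLX, a homeobox factor, by 4.33 (± 0.27) and ABLIM1, an actin-binding protein, by 4.30 (± 0.25). ABLIM1 read 6.70 and 6.18 in Monolayer, next to the 6.34 and 5.86 of Sphere. STOM, a membrane protein, and TLL2, a protease that processes matrix, were under the limit in Monolayer and Sphere and at least 124.7-fold and 75.6-fold higher in iCSC than in Sphere.

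Among signalling pathways, Hedgehog genes had the highest share of rises. Of 11 tested, 8 (72.7%) rose and 1 fell, beside 19.3% and 19.2% over all genes. Of the 11, 2 were measured in iCSC and under the limit in Sphere and 1 the reverse, a grouping that fixes their direction. One of the former, GLI2, read 8.37 and 8.28 in Monolayer and so passed the filter without iCSC. The transcription factor GLI3 read 7.03 and 7.54 in Sphere and 10.23 and 10.39 in iCSC (3.03 ± 0.19, limma, adjusted p = 6.69e-05), and GLI2 was at least 6.20-fold higher. BOC, a co-receptor, rose from 7.28 and 6.68 to 9.94 and 9.80. GPC3, a glypican that binds Hedgehog ligands, was the member that fell, from 10.16 and 9.76 to 3.71 and 3.76, at least 31.1-fold. Over the list the median difference came to 1.64, or 0.86 with values under the limit set to it. Notch genes rose in 8 of 25 cases and fell in 3. The receptor NOTCH1 was at least 10.8-fold higher, and the ubiquitin ligases DTX4 and DTX3 were at least 14.2-fold and 13.9-fold lower. NOTCH1 read 2.68 and 4.83 on the Sphere arrays, and its call was lost without variance moderation (adjusted p = 0.0615).

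TGF-beta and BMP genes rose in 9 of 31 cases and fell in 4, and WNT genes rose in 8 of 29 and fell in 8, beside 19.3% and 19.2% over all genes. These are 29.0% and 12.9% of the former list and 27.6% in either direction of the latter. The ligand BMP4 read 9.84 and 9.72 in Sphere and 4.15 and 5.95 in iCSC (-4.73 ± 0.53, limma, adjusted p = 0.000841). With the 1 iCSC array under the limit set to it, the BMP4 difference was -4.30. The receptor BMPR1B fell by 2.98 (± 0.27). ID4, an inhibitor of differentiation factors, was at least 7.48-fold higher, and LTBP1, which stores latent TGF-beta, rose by 2.42 (± 0.14). The WNT antagonist DKK2 was at least 15.8-fold lower and the receptor ROR1 rose by 2.04 (± 0.19). Growth factor receptors and ligands rose in 15 of 37 cases and fell in 8. HGF, the ligand of MET, read 11.43 and 11.53 in Sphere and 7.17 and 7.95 in iCSC (-3.92 ± 0.26, adjusted p = 7.82e-05), and IGFBP3, an insulin-like growth factor carrier, was at least 12.4-fold lower. PDGFC rose by 3.57 (± 0.23). VEGFC, a lymphatic growth factor, read 10.30 and 10.47 against 5.48 and 8.08 (adjusted p = 0.0105), and lost its call without Sphere replicate 1 (0.0657), without Sphere replicate 2 (0.0717) and without variance moderation (0.115). Of 42 axon guidance genes, 14 rose and 8 fell, with EPHB4 and SLIT2 higher by 3.89 and 3.27 and SEMA3A lower (-3.16). NTN1 was not measured on either Sphere array and was at least 8.04-fold higher.

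Genes of the cell cycle and basic metabolism moved by small amounts. Of 44 G2/M and mitosis genes, 14 (31.8%) rose and 3 fell, with a median of 0.24. AURKB, a mitotic kinase, rose from 7.42 and 7.58 to 8.79 and 9.08 (1.43 ± 0.15, limma, adjusted p = 0.000582), and the spindle proteins KIF23, BUB3 and NUSAP1 rose by 1.17, 1.07 and 0.97. AURKB lies on chromosome 17 and KIF23 and NUSAP1 on chromosome 15, and with chromosome medians removed 9 members were called higher and none lower. Without Sphere replicate 1 the higher calls numbered 8. S phase genes showed 6 rises and 6 falls among 49, with the cyclin CCNE2 higher by 1.23 (± 0.11) and the helicase subunit GINS4 and the kinase CDC7 lower (-1.61 and -1.27). The GINS4 call was lost without variance moderation (adjusted p = 0.0696). Of 48 oxidative phosphorylation subunits 6 rose and 5 fell, none by 2-fold, and of 38 cytosolic ribosomal proteins 2 rose and none fell, beside 19.3% and 19.2% over all genes. Those 2 were RPL35 on chromosome 9 and RPLP1 on chromosome 15, by 0.37 and 0.30, and with chromosome medians removed both differences were below 0 and not called. Both calls were also lost without Sphere replicate 2 (adjusted p = 0.0821 and 0.0795), without iCSC replicate 1 (0.0513 and 0.0653) and without variance moderation (0.0810 and 0.0756).

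Stress and survival genes changed in smaller sets. Of 28 apoptosis regulators, 12 fell and 2 rose, beside 19.2% and 19.3% over all genes. BCL2, which blocks cell death, fell from 9.58 and 9.57 to 6.37 and 5.78 (-3.50 ± 0.22, limma, adjusted p = 6.37e-05), and BOK, a relative that promotes it, was at least 6.02-fold lower. PMAIP1, a p53 target that promotes cell death, rose by 1.74 (± 0.15). Of 27 p53 targets 8 rose and 5 fell, and CDKN1A, the cell cycle inhibitor p21, fell by 1.49 (± 0.30, adjusted p = 0.00965), a call lost without variance moderation (0.0886). Of 39 hypoxia and glycolysis genes 10 fell and 4 rose. EPAS1, the oxygen-sensing factor HIF-2 alpha, read 11.52 and 10.85 in Sphere and 5.07 and 4.37 in iCSC, with 1 iCSC array under the limit (-6.15 with that array set to the limit), while the glucose transporter SLC2A3 rose by 1.99 (± 0.18). Metallothionein and heat shock genes rose in 9 of 21 cases and none fell, but without Sphere replicate 1 the number was 1. The glutathione transferase GSTM3 and the reductase AKR1C1, of the NRF2 and aldehyde dehydrogenase list with 7 rises and 7 falls among 30, were at least 8.88-fold and 4.45-fold lower. Genes described elsewhere as methylated in tumours fell in 15 of 28 cases and rose in 4. The prostaglandin receptor PTGER2 was at least 10.1-fold lower, the protease inhibitor TFPI2 at least 7.37-fold lower and the WNT antagonist SFRP1 lower (-2.74 ± 0.21).

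The remaining lists gave mixed counts, several of them near the shares over all genes (19.3% higher and 19.2% lower). Protocadherins of the clusters had 6 tested members, of which PCDHB2 was at least 9.75-fold higher and PCDHB6 at least 1.70-fold lower. The PCDHB6 call was lost with values under 5 set to 5 (limma, adjusted p = 0.067) and without variance moderation (0.0565). Of 31 endoplasmic reticulum genes 7 rose and 3 fell, and DNAJC3, a chaperone partner, rose by 0.95 (± 0.14). Of 25 cholesterol and fatty acid genes 4 rose and 3 fell, of 29 nucleolar genes 6 rose and 1 fell, and of 18 ABC transporters 2 rose and 3 fell, with ABCA3, a lipid transporter, lower (-1.95 ± 0.15). Annexins and S100 proteins showed 4 rises and 4 falls among 16. S100A4, a calcium-binding protein linked to motility, read 12.47 and 12.74 in Sphere and 8.20 and 10.94 in iCSC (-3.04 ± 0.77, adjusted p = 0.0223), and lost its call without either Sphere replicate (0.100 and 0.120), without either Monolayer replicate (0.0611 for both), with the 4 arrays only (0.0609), with no filter (0.0658) and without variance moderation (0.160). Keratins and other intermediate filaments fell in 7 of 17 cases and rose in 4. The reference genes GAPDH, ACTB and TBP differed by -0.03, -0.12 and -0.09 and were not called (adjusted p = 0.797, 0.278 and 0.573).

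The size and sign of the difference also followed gene order along several chromosomes. Over the genes measured in both cultures the median difference was -0.67 on chromosome 14, 0.47 on chromosome 15 and 0.44 on chromosome 9, against 0.07 on chromosome 1 and -0.01 on chromosome 2. Genes were taken in blocks of 30 neighbours in RefSeq order, which gave 309 blocks, of which 38 had a median of at least 0.3 and 36 of at most -0.3. The stretches below were picked after these values were seen, carry no test and give no cause. At the start of chromosome 17, 6 blocks from LIAT1 to ZNF830 (180 genes) had a median of 0.66, a ratio of 1.58. Of their genes 68.3% were called higher and 2.8% lower, beside 19.3% and 19.2% over all genes tested. From LIG3 to the end the median was 0.03, with 13.3% higher and 10.8% lower. Block medians in the first stretch lay between 0.61 and 0.69 on iCSC replicate 1 and between 0.57 and 0.72 on replicate 2, so both arrays showed the step. Chromosome 20 changed sign, with -0.38 from ZCCHC3 to TPX2 (90 genes) and 0.41 from PDRG1 to PCMTD2 (180 genes).

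Set against the Monolayer arrays, the stretches differed in which sphere culture stood apart. For the start of chromosome 17, Sphere lay 0.58 below Monolayer on the log2 scale and iCSC 0.07 above it (medians). On chromosome 15 Sphere stood at -0.46 and iCSC at 0.01, and on the second stretch of chromosome 20 at -0.29 and 0.10. On chromosome 14 the order was turned, with Sphere at 0.05 and iCSC at -0.57, and 68.4% of the 294 genes called lower in iCSC than in Sphere. Chromosome 5 followed chromosome 14, with Sphere at -0.05 and iCSC at -0.41. Chromosome 9 from TUSC1 to EHMT1 (347 genes) had Sphere at -0.06 and iCSC at 0.39, and 47.8% of its genes were called higher. Over all genes tested 19.3% were called higher and 19.2% lower. The cause was not tested. With chromosome medians removed 3371 genes were called, and 3104 with the median of each gene's neighbourhood removed.

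**Figure D4:**
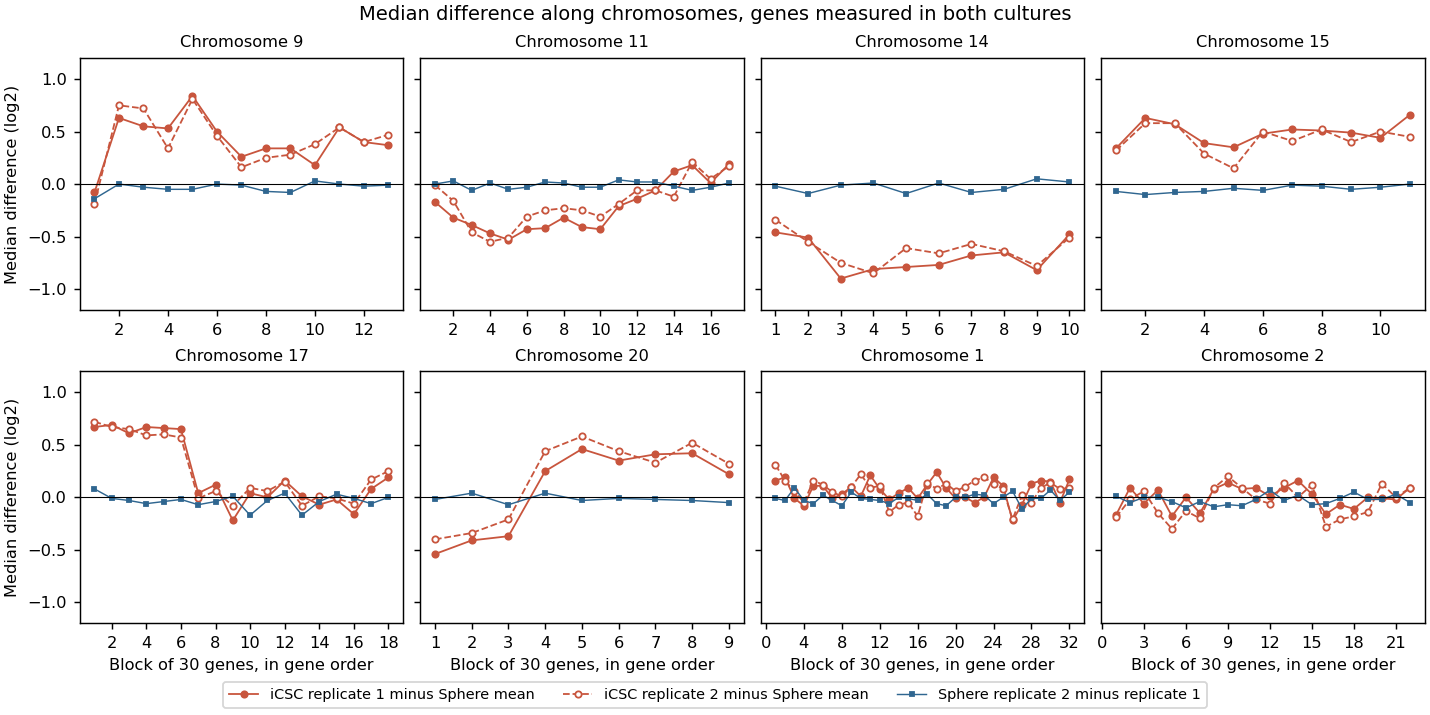
Median log2 difference over blocks of 30 neighbouring genes along 8 chromosomes, for each iCSC array minus the Sphere mean (red) and for Sphere replicate 2 minus replicate 1 (blue). The step from about 0.66 to 0.03 on chromosome 17 and the change of sign on chromosome 20 appear on both iCSC arrays, while chromosomes 1 and 2 stay near 0.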

How the data were processed

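Messenger RNA of 3 SK-N-AS cultures was measured on Affymetrix expression arrays, 2 per culture. The authors deposited log2 values of 54675 probe sets, and GCRMA and Partek are named per the submitters' processing notes; no version, setting or order of steps is given in the sources used here. In these values unexpressed probe sets lie in a low band, so differences from under log2 5 overstate what was measured.

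Groups and replicate numbers came from the titles. Of 41091 probe sets with 1 symbol, 41037 matched a RefSeq gene table (GRCh38.p14) used for names and gene order. Those at log2 5 or more on at least 2 of 6 arrays (18059) were kept, and each gene took the one with the highest mean, which left 10459 genes. limma 3.58.1 in R 4.3.3 fitted a mean per culture over 6 arrays with a mean-variance trend, and iCSC minus Sphere was tested on both sides with Benjamini-Hochberg adjustment at 0.05. The fit was tested on simulated data. No depth applies to arrays, and their number limits the precision.

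The genes, the 42 lists and the marker lists were chosen with earlier results of these data known. Genes were picked for naming as the 12 largest called rises and falls measured in both cultures without overlap, the 10 largest in each direction among those under the limit in 1 culture, up to 4 called members per list, and 16 genes whatever their values; some picked list members are left out of the text for length, and some members named only for having moved or not passed were added after their values were seen. Promoters were RefSeq's, the first listed per symbol. Alternatives changed the filter, a floor, the normalization, the arrays fitted, the block, the variance model, the probe sets and the removal of chromosome medians; removal of neighbourhood medians (51 genes) was added after seeing the data. Figures used matplotlib 3.10.9.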

Additional observations from a re-analysis of the deposited data

Results flagged for a closer look

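The gene tests left out probe sets with more than 1 symbol and those without any, and some of them gave signal in iCSC that Sphere lacked. Of 1801 probe sets with several symbols, 35 were at or above log2 5 on both iCSC arrays and under it on both Sphere arrays, and 13 showed the reverse. Of 11721 with no symbol, 71 and 54 did. Fitted apart with limma, 916 of the former were tested and 161 were called higher and 90 lower in iCSC, and 1584 of the latter were tested with 206 and 202 calls (adjusted p under 0.05). Their genes are not named here.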

How the results depend on the processing

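Called genes numbered 4022 (2014 higher and 2008 lower), and 20 alternatives were run. These counts stayed within 1.5 times, except without variance moderation, where 2281 were called (1132 higher and 1149 lower), and without Sphere replicate 1. The higher calls also left that range without Sphere replicate 2. Leaving out 1 array at a time gave 2574 to 3883 calls, 1318 to 1942 higher and 1242 to 1941 lower. Without Sphere replicate 1 the calls were 1332 higher and 1242 lower, and without Sphere replicate 2 they were 1318 and 1393. With the replicate number as a block 4106 genes were called. The numbers were not taken as pairing the arrays, since deviations of same-numbered arrays correlated at 0.17 between Sphere and iCSC, 0.02 between Monolayer and Sphere and -0.05 between Monolayer and iCSC. With chromosome medians removed 3371 genes were called, 7 of them opposite to their call without it, and with neighbourhood medians removed 3104 and 12. Without x_at and s_at probe sets 2949 of 7747 genes were called.

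Of 185 called genes that the naming rule gave, 136 kept the call under every alternative run and 49 lost it under at least 1. Differences turned sign for NT5C without x_at and s_at probe sets (-0.17), for RPL35 with chromosome medians removed (-0.089) and for RPLP1 with chromosome (-0.17) or neighbourhood (-0.16) medians removed, none of them called there. UHRF1 was called with chromosome (adjusted p = 0.0216, limma) or neighbourhood (0.0255) medians removed and without Sphere replicate 2 (0.0369), TET2 without iCSC replicate 1 (0.0481) and TET3 without iCSC replicate 2 (0.0266). With 2 arrays per culture, small differences that missed the threshold are not shown to be absent.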

Other observations

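Other chromosomes showed stretches of the same kind, picked after their values were seen and without a test. Their shares of calls stand beside 19.3% higher and 19.2% lower over all genes tested. On chromosome 11, 270 genes from CD81 to DPP3 measured in both sphere cultures had a median difference of -0.34, with 44.1% called lower and 3.3% higher in iCSC, and 150 genes from RPS3 to APLP2 had 0.03. Sphere lay 0.20 above Monolayer and iCSC -0.15 from it in the former. On chromosome 13 the median was 0.32 over 169 genes, and 37.9% of them were called higher and 10.1% lower. On chromosome 4, 270 genes from SLIT2 to STOX2 had -0.31, with 35.2% called lower and 7.8% higher. SLIT2 itself rose by 3.27 within that stretch.

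A further 221 genes were under the limit in both sphere cultures and entered the test through Monolayer. Of these, limma called 26 higher and 5 lower in iCSC (adjusted p under 0.05), and no fold is given since both levels lie under the limit.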
